A study of Mus musculus with 12 samples.

Results

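In the mouse liver, 6 genes were described: Suclg2, Akr1c19, Aph1a, Odr4, Slc35c2 and Rbm47. Their RNA was divided differently among transcripts in PZH mice than in control mice, while the summed gene FPKM stayed close. The 6 genes were chosen among the 14188 genes of the protein-coding table. Of these, 7399 had 2 or more listed transcripts, and 2484 of those reached a mean gene FPKM of 10 over the 12 mice. FPKM counts the fragments assigned to a transcript relative to its length in kb and to the mapped total of the library, so it is a level per length, and the share of a transcript is its FPKM divided by the sum over the listed transcripts of its gene in the same mouse. A gene was kept where the mean share of 1 transcript differed by at least 0.2 between the groups, the 6 shares of one group did not overlap the 6 of the other, and the mean log2(gene FPKM + 1) differed by less than 0.5. The share criteria were met by 13 of the 2484 genes (0.523%), and 6 of them (0.242%) also met the bound on the gene. The genes were thus chosen by the shares and gene sums of this same contrast, so both are given as a description and neither was tested. For Akr1c19 the gene sums were close in FPKM and not in fragments without division by length. The share difference of Rbm47 rested on PZH mice 1 and 4.

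All 12 mice were labelled C57BL/8, a name that the study's methods give as C57BL/6J, and were male and 6 weeks old at the start. The 6 mice of the PZH group and the 6 mice of the control group all received CCl4, a solvent that injures hepatocytes and leads to hepatic fibrosis, by intraperitoneal injection 2 times per week. PZH mice were also given Pien Tze Huang (PZH), a Chinese herbal preparation used in liver disease, by stomach tube 1 time per day, and control mice were given double distilled water in its place. Liver RNA from week 8 was depleted of ribosomal RNA and sequenced as strand-specific libraries, 1 library per mouse, and no group without CCl4 was part of the RNA data. The table held FPKM that summed to 325302 to 370426 per mouse, with no read counts.

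A gene can yield several transcripts through different promoters, through the exons that splicing joins and through different sites of cleavage and polyadenylation. Some of these choices alter the protein, and others alter only the untranslated ends, which bear on the stability and translation of the RNA. Short reads seldom span a whole transcript, so a program such as StringTie divides the reads of a gene among annotated transcripts from the few stretches in which they differ. A share is therefore an estimate for each mouse, and an FPKM listed at 0 can also be an estimate that failed.

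The transcript with the largest difference in mean share is called the lead transcript of a gene, and the one with the largest difference of opposite sign its counterpart. The share of the lead transcript was higher in the PZH group for 3 genes (Suclg2, Odr4 and Rbm47) and lower for 3 (Akr1c19, Aph1a and Slc35c2). The 6 genes had 26 listed transcripts, of which 10 had shares that did not overlap between the groups, against 2.15% of the listed transcripts of all tested genes. That count includes the 6 lead transcripts that the criteria required. It also includes Akr1c19-202, Suclg2-201 and Aph1a-201, which hold almost all of the rest of their genes and so mirror the lead. Nothing is therefore read from this count. The spread inside the groups was of very different size. In 4 of the 6 genes (Akr1c19, Odr4, Slc35c2 and Rbm47) the share of a transcript ranged over 0.5 or more within a group, against 17.7% of the tested genes and 76.9% of the 13 genes that met the share criteria.

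**Figure D1:**
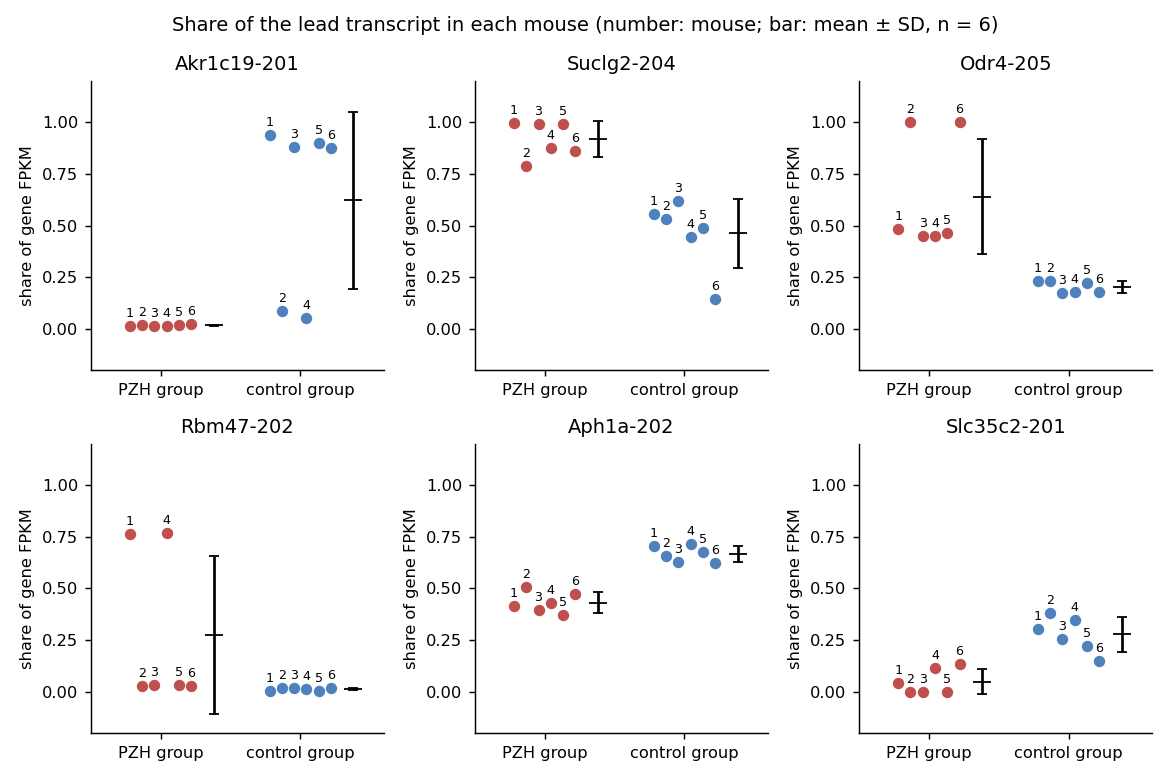
Share of the lead transcript in the summed FPKM of its gene, for each of the 6 PZH mice (red) and 6 control mice (blue), with the number of the mouse above each point and the mean ± SD (n = 6) as a bar. Aph1a-202 separated the groups with all mice near their group and Suclg2-204 with control 6 apart from the other control mice, whereas 2 control mice for Akr1c19 and 4 PZH mice for Rbm47 lay close to the other group.

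Suclg2 encodes the beta subunit of the GTP-forming succinyl-CoA ligase, an enzyme of the citric acid cycle in the mitochondrial matrix. The gene (ENSMUSG00000061838) lies on the minus strand at chr6:95473009-95718800 of GRCm38, and 3 of its 5 annotated transcripts were listed. Suclg2-204, with 11 exons and 433 codons, begins at an upstream first exon, and Suclg2-201, with 11 exons and 384 codons, begins at another first exon 25918 bases downstream and ends 1133 bases upstream. The first exon of Suclg2-201 is untranslated, and its coding sequence begins at a codon within the shared second exon, 49 codons into that of Suclg2-204. The 150 coding bases of Suclg2-204 from its own start codon up to the start codon of Suclg2-201 show what the proteins do not share. They come from chr6:95718689-95718775 and chr6:95655537-95655599 (GRCm38, minus strand, printed 5′ to 3′), and the capitals mark the start codons of both transcripts.
Suclg2-204: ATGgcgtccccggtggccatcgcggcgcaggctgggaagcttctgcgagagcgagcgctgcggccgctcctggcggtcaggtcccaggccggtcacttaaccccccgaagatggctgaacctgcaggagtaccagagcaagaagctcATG
The bases before the last codon are absent from the coding sequence of Suclg2-201. Proteins of the mitochondrial matrix that are made in the cytosol commonly carry the signal for their import at the amino end, and whether either product of Suclg2 is imported was not examined.

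In PZH mice most of the Suclg2 signal was assigned to the longer-coding Suclg2-204, and almost all of it in mice 1, 3 and 5. In control mice the signal was divided between Suclg2-204 and Suclg2-201. The share of Suclg2-204 was 0.997, 0.790, 0.993, 0.877, 0.993 and 0.859 in PZH mice 1 to 6, with a mean of 0.918 ± 0.0881 (SD, n = 6). In control mice 1 to 6 it was 0.555, 0.530, 0.617, 0.446, 0.486 and 0.144, with a mean of 0.463 ± 0.167 (SD, n = 6). The lowest PZH mouse, number 2, stood above the highest control mouse, number 3, and control 6 stood far below the rest of its group. The FPKM of Suclg2-204 was 46.9 ± 5.88 (SD, n = 6) in PZH mice and 25.7 ± 8.56 (SD, n = 6) in control mice. The FPKM of Suclg2-201 ran from 0.0999 to 9.25 in PZH mice and from 20.3 to 51.3 in control mice, again with no overlap. PZH mice 1, 3 and 5 had almost none of it, with FPKM of 0.0999, 0.131 and 0.183, and the other PZH mice had 6.76 to 9.25. The third listed transcript, Suclg2-205, had shares of at most 0.00463. The gene sums were 51.1 ± 5.15 (SD, n = 6) FPKM in PZH mice and 56.4 ± 5.01 (SD, n = 6) in control mice, a log2 difference of -0.14 with overlapping ranges (44.8 to 57.6 and 51.5 to 64.3). Suclg2 was the most highly expressed of the 6 genes and the only one that stayed when a mean gene FPKM of 20 was required.

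Akr1c19 belongs to the aldo-keto reductases, enzymes that reduce carbonyl groups with NADPH. It lies on the plus strand at chr13:4228700-4252843 (ENSMUSG00000071551), and its 3 annotated transcripts were all listed. Akr1c19-201 (9 exons, 1242 bases) and Akr1c19-202 (10 exons, 5832 bases) have the same coding sequence of 969 bases, or 323 codons. They differ at both untranslated ends. Akr1c19-202 begins 5040 bases upstream in an extra first exon and ends 4484 bases downstream, with a last exon of 4766 bases against 282 bases. The annotation gives Akr1c19-201 its best level of transcript support (1) and Akr1c19-202 its lowest (5).

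In PZH mice nearly all of the Akr1c19 signal was assigned to the long Akr1c19-202, and in 4 of the 6 control mice to the short Akr1c19-201. The share of Akr1c19-201 was 0.0158, 0.0192, 0.0141, 0.0144, 0.0181 and 0.0220 in PZH mice 1 to 6. It was 0.938, 0.0858, 0.880, 0.0517, 0.899 and 0.877 in control mice 1 to 6. Control mice 2 and 4 were thus near the PZH mice, though above them, and the other 4 control mice lay at 0.877 or more. The means were 0.0173 ± 0.00307 (SD, n = 6) and 0.622 ± 0.429 (SD, n = 6). Without control mice 2 and 4 the difference of -0.604 became -0.881. The FPKM of Akr1c19-201 was 0.209 to 0.306 in PZH mice, 0.385 and 0.807 in control mice 4 and 2, and 14.4 to 29.3 in the other control mice. The FPKM of Akr1c19-202 was 10.5 to 16.2 in PZH mice and 1.18 to 8.57 in control mice, in which mice 2 and 4 were the highest.

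For Akr1c19 the size of the gene difference depended on the unit. The gene FPKM was 15.97, 10.8, 15.5, 16.6, 13.3 and 13.9 in PZH mice 1 to 6 and 19.4, 9.41, 16.4, 7.45, 22.9 and 33.4 in control mice 1 to 6, a log2 difference of -0.17. FPKM divides by the length of the assigned transcript, which is 5832 bases for Akr1c19-202 and 1242 bases for Akr1c19-201. When each FPKM was multiplied by its transcript length in kilobases, which gives fragments relative to the mapped total alone (per M mapped), the gene had 61.6 to 95.04 fragments per M in PZH mice and 29.2 to 60.1 in control mice. These sums did not overlap, with means of 81.9 ± 12.3 (SD, n = 6) and 41.7 ± 12.2 (SD, n = 6) and a log2 difference of 0.99. Akr1c19 was the only 1 of the 6 genes whose fragment sums did not overlap (31.2% of the tested genes) and the only 1 with a fragment difference of 0.5 or more. That size was reached by 60 of the 1766 tested genes with an FPKM difference under 0.5 (3.4%). In FPKM the small difference averaged over unlike control mice. Control 2 and 4, at 9.41 and 7.45, lay below every PZH mouse, and the other control mice ran from 16.4 to 33.4. Without control 2 and 4 the gene difference in FPKM exceeded the bound and Akr1c19 no longer met the criteria. The name of a switch without a change of the gene therefore held for Akr1c19 in FPKM over all mice, and not in fragments.

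**Figure D2:**
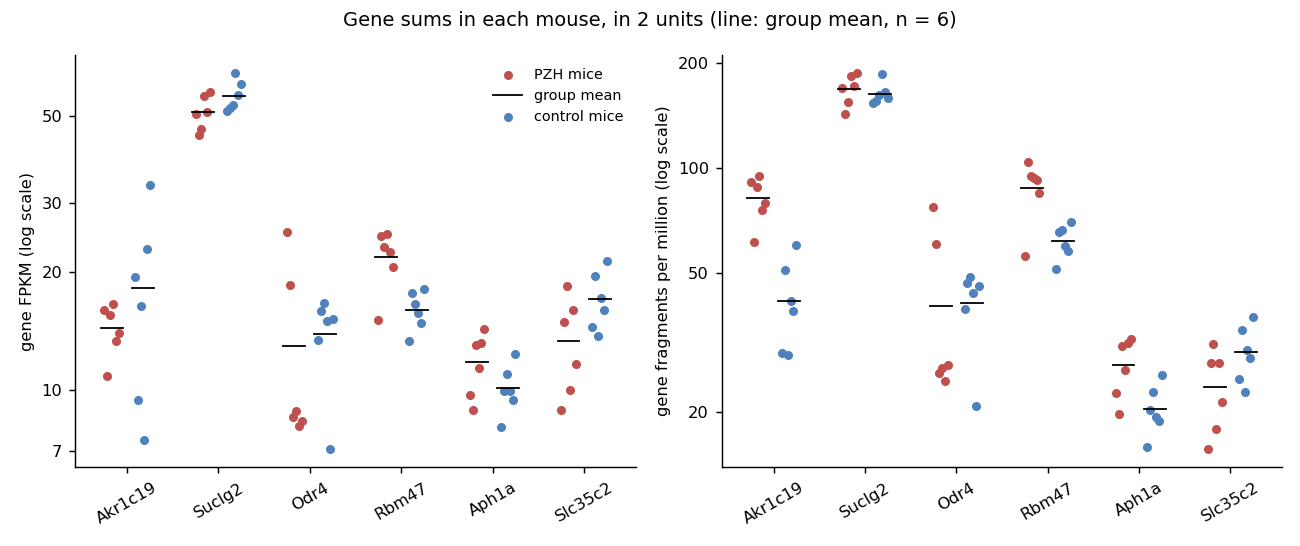
Summed level of each gene in every mouse on log axes, as FPKM (left) and as fragments per M mapped (right), with the 6 PZH mice in red, the 6 control mice in blue and a line at each group mean. The groups overlap for all 6 genes in FPKM, and in fragments per M they part for Akr1c19 alone.

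Aph1a encodes a subunit of gamma-secretase, the membrane protease that cuts Notch receptors and the amyloid precursor protein within the membrane. The gene (ENSMUSG00000015750) spans chr3:95893969-95898288 on the plus strand, and 2 of its 4 annotated transcripts were listed. Aph1a-202 (7 exons, 1601 bases, 265 codons) splices from its sixth exon to a seventh. In Aph1a-201 (6 exons, 2863 bases, 247 codons) the last exon runs on through the bases that are intronic in Aph1a-202, so the coding sequence ends earlier and the protein differs at its carboxyl end by 18 codons in length. The ends of both coding sequences are shown because they hold this difference. The shared coding bases are in lower case, and the capitals mark the bases after the last one in common, up to the stop codon, at chr3:95896361-95896368 for Aph1a-201 and chr3:95896694-95896755 for Aph1a-202 (GRCm38, plus strand).
Aph1a-201: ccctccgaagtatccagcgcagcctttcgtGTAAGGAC
Aph1a-202: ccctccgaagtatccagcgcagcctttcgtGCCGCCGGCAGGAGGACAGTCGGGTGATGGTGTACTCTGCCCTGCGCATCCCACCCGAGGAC
The transcript ends lie 843 bases apart and the start sites 86 bases apart.

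In Aph1a the shares lay close together within both groups and apart between them. The share of Aph1a-202 was 0.412, 0.506, 0.393, 0.430, 0.372 and 0.472 in PZH mice 1 to 6, with a mean of 0.431 ± 0.0503 (SD, n = 6). In control mice 1 to 6 it was 0.703, 0.656, 0.626, 0.715, 0.677 and 0.620, with a mean of 0.666 ± 0.0390 (SD, n = 6). No mouse stood apart from its group, and PZH 2 and control 6 were the nearest of the 12. Both transcripts were present in all mice, and their mean FPKM differed in opposite directions. The FPKM of Aph1a-201 was 6.72 ± 1.49 (SD, n = 6) in PZH mice and 3.41 ± 0.851 (SD, n = 6) in control mice, and that of Aph1a-202 was 5.03 ± 0.933 (SD, n = 6) and 6.69 ± 0.682 (SD, n = 6). Each of these FPKM ranges overlapped between the groups, so it was the share and not either level that separated all mice. The gene FPKM was 8.89 to 14.3 in PZH mice and 8.04 to 12.3 in control mice, a log2 difference of 0.19. In the annotation 445 bases of Aph1a-201 also lie in an exon of Car14-201, a transcript of the opposite strand, which strand-specific reads can tell apart.

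Odr4 is the mouse relative of a worm gene that is needed to bring odorant receptors to the membrane of cilia. It lies on the minus strand at chr1:150361305-150393080 (ENSMUSG00000006010), with 3 of 9 annotated transcripts listed. Odr4-205 (14 exons, 447 codons) holds a coding exon of 96 bases, or 32 codons, at chr1:150381499-150381594 that Odr4-204 (13 exons, 415 codons) lacks. This exon, in capitals, is the coding difference of the 2 transcripts, and 15 coding bases on each side are in lower case (GRCm38, minus strand).
Odr4-205: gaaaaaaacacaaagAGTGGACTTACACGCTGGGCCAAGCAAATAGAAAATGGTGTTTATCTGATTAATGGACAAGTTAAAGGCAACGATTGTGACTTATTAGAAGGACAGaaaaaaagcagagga
The length of the exon is a multiple of the codon length, so the coding sequence downstream is in the same frame in both. The start sites lie 318 bases apart. The annotation gives all 3 listed transcripts its lowest level of transcript support (5).

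The exon-containing Odr4-205 took a larger share in every PZH mouse than in any control mouse. Its share was 0.482, 1, 0.448, 0.451, 0.463 and 1 in PZH mice 1 to 6 and 0.231, 0.230, 0.174, 0.177, 0.220 and 0.181 in control mice 1 to 6. PZH mice 2 and 6 had the whole gene assigned to Odr4-205, and the other 4 PZH mice were close together. Without those 2 mice the difference in mean share of 0.439 became 0.259. Odr4-204 was listed at 0 in PZH 2 and 6, had shares of 0.518 to 0.552 in the other PZH mice and of 0.491 to 0.826 in control mice, and so overlapped. Odr4-203 was listed at 0 in all mice but control 6, in which its share was 0.329. The gene FPKM was 25.3, 18.5, 8.54, 8.82, 8.07 and 8.33 in PZH mice 1 to 6 and 13.4, 15.9, 16.7, 14.98, 7.08 and 15.2 in control mice 1 to 6. PZH mice 1 and 2 thus lay above every control mouse and the other 4 below every control mouse but number 5, and the log2 difference of the means of -0.19 averaged over both. In the annotation 176 bases of Odr4-205 overlap Tpr-203 of the opposite strand.

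Slc35c2 encodes a membrane protein of the nucleotide-sugar transporter family. It lies on the minus strand at chr2:165276554-165287869 (ENSMUSG00000017664), with 8 of 16 annotated transcripts listed. Slc35c2-201, Slc35c2-202, Slc35c2-203 and Slc35c2-204 share the same coding sequence of 1092 bases, or 364 codons, and differ in their untranslated exons at the 5′ end. The start sites of Slc35c2-201 and its counterpart Slc35c2-204 lie 42 bases apart and their ends coincide.

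Slc35c2-201 took a smaller share in PZH mice, and the transcripts that held the rest varied from mouse to mouse. The share of Slc35c2-201 was 0.0402, 0, 0, 0.116, 0 and 0.132 in PZH mice 1 to 6 and 0.304, 0.381, 0.257, 0.349, 0.221 and 0.150 in control mice 1 to 6. It was listed at 0 in PZH 2, 3 and 5, and PZH 6 came within a small distance of control 6. The share of Slc35c2-204 ranged from 0.160 to 0.881 in PZH mice and from 0.109 to 0.574 in control mice. Slc35c2-202 held a share of 0.612 in PZH 5 and was listed at 0 in PZH 1, 2 and 3. Slc35c2-203 held a share of 0.466 in PZH 3 and was listed at 0 in the other PZH mice. The gene FPKM was 8.90 to 18.4 in PZH mice and 13.8 to 21.3 in control mice, a log2 difference of -0.36.

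**Figure D3:**
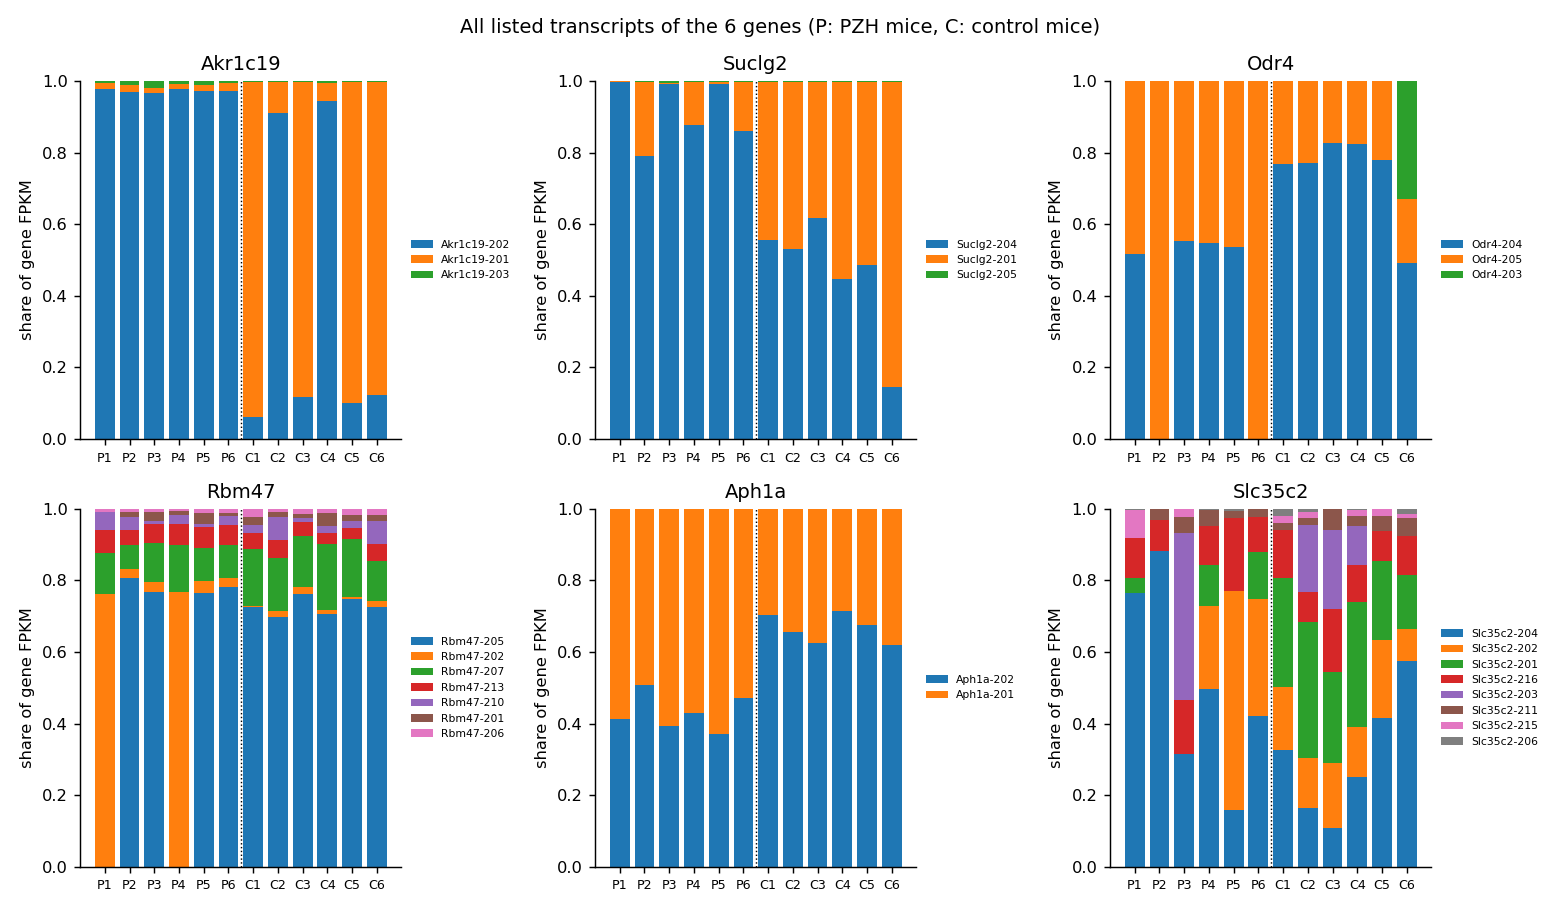
Shares of all listed transcripts of the 6 genes in each PZH mouse (P1 to P6) and control mouse (C1 to C6), stacked to 1. Single mice change the picture within a group, such as C2 and C4 for Akr1c19, P2, P6 and C6 for Odr4, and P1 and P4 for Rbm47.

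Rbm47 encodes an RNA-binding protein that acts in C-to-U editing of apolipoprotein B mRNA and in splicing. It lies on the minus strand at chr5:66016549-66173118 (ENSMUSG00000070780), with 7 of 14 annotated transcripts listed. Rbm47-202 (6 exons, 4643 bases) and Rbm47-205 (8 exons, 4895 bases) have the same coding sequence of 590 codons, and the start site of Rbm47-202 lies 70924 bases downstream of that of Rbm47-205. The alternative is thus between distant first exons, with no difference in the protein.

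For Rbm47 the difference rested on 2 mice. The share of Rbm47-202 was 0.762, 0.0254, 0.0297, 0.767, 0.0331 and 0.0251 in PZH mice 1 to 6. It was 0.00465, 0.0160, 0.0194, 0.0110, 0.00474 and 0.0166 in control mice 1 to 6. PZH 1 and PZH 4 had most of the gene assigned to Rbm47-202, and the other 4 PZH mice were only just above the control mice. Rbm47-205 was listed at 0 in PZH 1 and 4, with shares of 0.764 to 0.806 in the other PZH mice and 0.697 to 0.761 in control mice. Without PZH 1 and 4 the difference in the share of Rbm47-202 was 0.0163 in place of 0.262, and the gene no longer met the criteria. Rbm47-213, an incomplete transcript that begins close to the start of Rbm47-202, had an FPKM of 0.963 to 1.501 in PZH mice and 0.460 to 0.872 in control mice. These FPKM did not overlap, whereas its shares did. The gene FPKM was 15.1 to 24.99 in PZH mice and 13.3 to 18.0 in control mice, and the log2 difference of 0.41 was the one nearest to the bound among the 6 genes. Under median-ratio scaling the gene passed that bound and 5 genes were left.

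**Figure D4:**
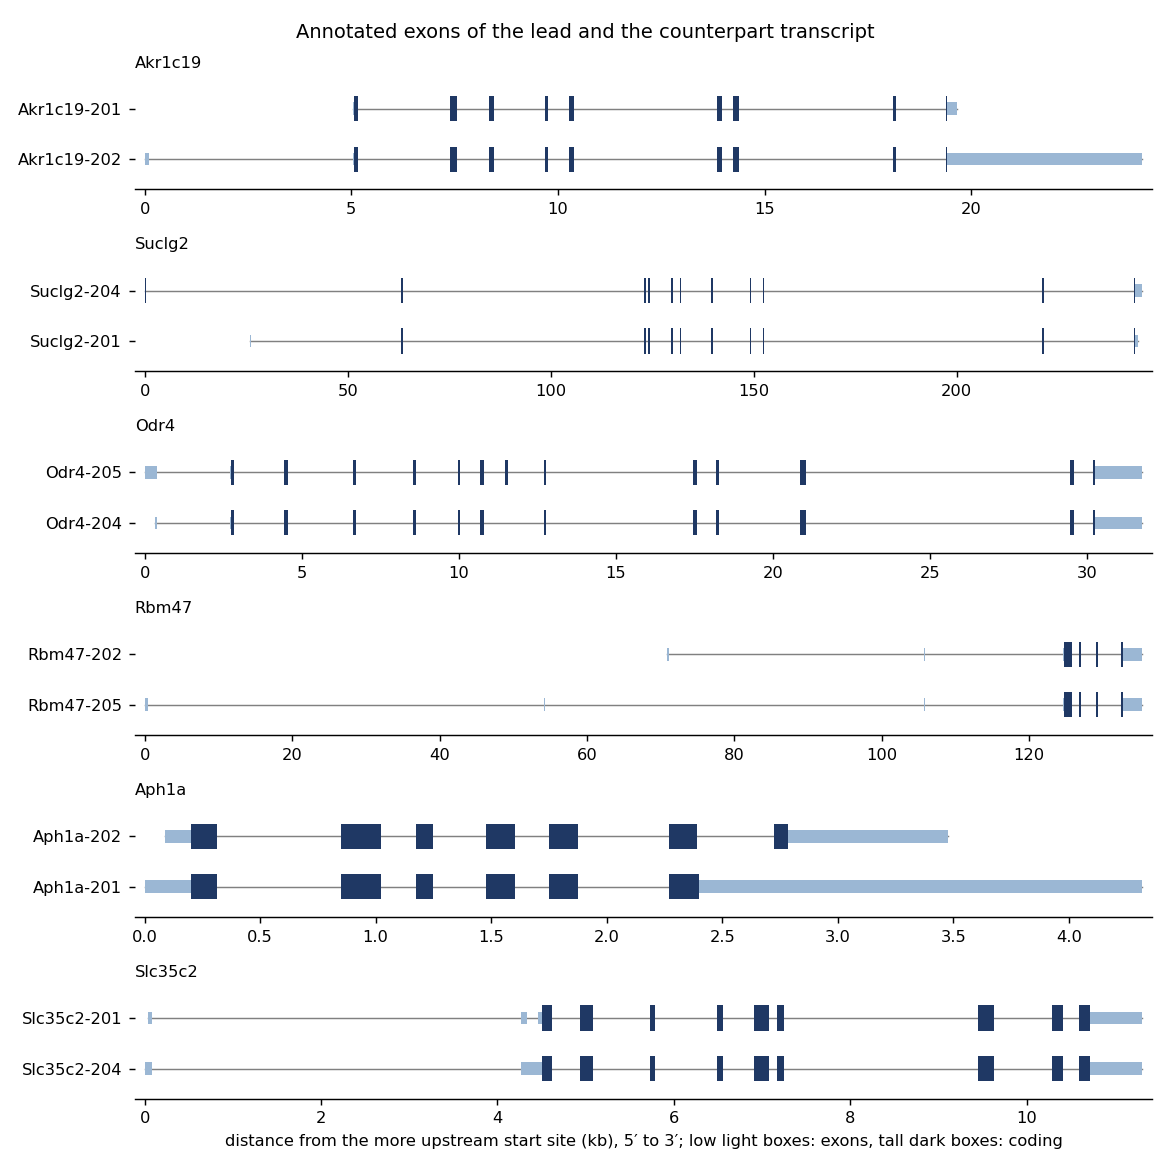
Annotated exons of the lead transcript (upper line) and the counterpart (lower line) of each gene, by distance in kb from the more upstream start site, with exons as low light boxes and coding parts as tall dark boxes. The pairs of Akr1c19, Rbm47 and Slc35c2 have the same coding sequence, and those of Suclg2, Odr4 and Aph1a differ at the start, in 1 internal exon and at the end.

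Across the 6 genes the lead transcript and its counterpart had the same coding sequence in 3 (Akr1c19, Rbm47 and Slc35c2), against 19.3% of the tested genes. Their start sites lay more than 50 bases apart in 5, against 68.6%. When transcripts with the same coding sequence were added together, Suclg2, Odr4 and Aph1a still met the criteria, with largest differences of 0.455, 0.439 and 0.235. The largest difference of Akr1c19, Rbm47 and Slc35c2 was then 0.00814, 0.0504 and 0.00495. When transcripts whose start sites lay within 50 bases were added together, Suclg2, Akr1c19, Rbm47 and Aph1a met the criteria (0.455, 0.604, 0.276 and 0.235), and Odr4 and Slc35c2 did not (0.384, with overlap, and 0.0290). Suclg2 and Aph1a met them in either way because none of their listed transcripts were joined, so their values could not change. The same was true of Odr4 for coding sequences and of Akr1c19 for start sites.

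The mice that stood apart were different ones in different genes. PZH 1 and 4 stood apart for Rbm47, PZH 2 and 6 for Odr4, control 2 and 4 for Akr1c19, and control 6 for Suclg2 and for Odr4-204. No library was apart in all of them, and the labels give no batch. The gene sums overlapped between the groups in all 6 genes, against sums that did not overlap in 30.4% of the tested genes. The bound on the gene favours such overlap, so nothing is read from this count.

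The 7 genes that met the share criteria with a larger gene difference were Upp2, Coq8a, Slc10a1, Lmna, Fam107b, Trabd and Ptgr2. The one nearest to the bound was Ptgr2, whose gene sum differed by 0.76 on the log2 scale with a share difference of 0.276 for Ptgr2-201. Just under the share limit stood Rbpms-202 with a share difference of -0.196, and just over it Slc35c2-201 with -0.229. The gene sum of Rbpms differed by -1.21 on the log2 scale, so it was also outside the bound on the gene. Over all tested genes the lead share differed by a median of 0.0287 in size and the gene by a median of 0.30 on the log2 scale. If overlap between the groups was allowed, 88 genes met the other limits, so most shares that differed by 0.2 in the mean did so with some mice on the side of the other group.

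**Figure D5:**
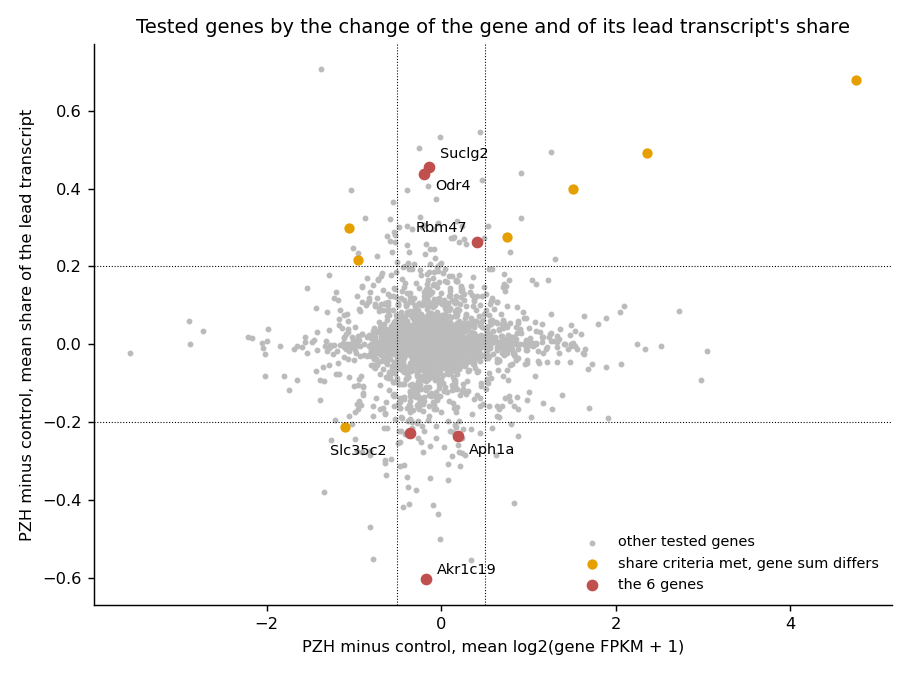
Each of the 2484 tested genes by its difference in mean log2(gene FPKM + 1) and by the difference in mean share of its lead transcript, PZH minus control, with dotted lines at the limits of 0.5 and 0.2. The 6 genes (red) lie between the vertical lines, the 7 others that met the share criteria (orange) outside them, and the grey points past 0.2 had overlapping shares.

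The factors that process RNA were examined because splicing and 3′ end formation are among the steps by which transcripts of a gene can differ. These factors do not cover the choice of start site. In all pairs but that of Slc35c2 the start sites also lay more than 50 bases apart. The list held 143 genes of splicing, 3′ end formation and nonsense-mediated decay, without Rbm47, and 140 were in the table. Their gene sums, which the criteria did not use, were compared with limma on log2(gene FPKM + 1) over all 14188 genes with Benjamini-Hochberg adjustment. At an adjusted threshold of 0.05, 73 of the 140 were called, 1 higher and 72 lower in the PZH group. Over all genes 44.8% were called, 12.7% higher and 32.1% lower. All genes include many of low level. Among genes with a mean FPKM of at least 1, 76 of 139 factors were called, 1 of them higher. Of all 10948 genes at that level 5644 were called, 1483 of them higher. The median difference was -0.32 on the log2 scale over the factors and -0.11 over all genes. Median-ratio scaling of each mouse moved the median of all genes to -0.0049 and that of the factors to -0.15. Then 49 factors were called, 4 higher and 45 lower (46 of them the same calls as before), against 39.0% of all genes (19.3% higher and 19.7% lower). In bulk liver, fewer cells of a type and less RNA per cell cannot be told apart, and whether the factors bear on the shares was not tested.

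The factors with the largest changes past the threshold were the following. Clp1, a kinase of the machinery that forms 3′ ends, had an FPKM of 4.35 ± 1.87 (SD, n = 6) in control mice and fell to 1.77 ± 1.25 in PZH mice (log2 difference -0.96, limma with Benjamini-Hochberg adjusted p = 0.0145). Sf3b4, a protein of the U2 particle of the spliceosome, fell from 11.2 ± 1.005 to 5.43 ± 1.13 (log2 difference -0.94, limma adjusted p = 4.29e-05). Ptbp1, which binds pyrimidine-rich RNA and represses exons, fell from 34.6 ± 5.501 to 18.2 ± 4.43 (log2 difference -0.91, limma adjusted p = 0.000916). The FPKM of Sf3b4 and Ptbp1 did not overlap between the groups, while that of Clp1 did. The splicing regulator Rbfox2 (log2 difference -0.79, limma adjusted p = 0.0179), the kinase Srpk1, which phosphorylates SR proteins (-0.77, limma adjusted p = 0.00741), and Smg5 of nonsense-mediated decay (-0.73, limma adjusted p = 0.000759) also fell. The 1 factor that rose was Srpk2, another kinase of SR proteins, from 3.22 ± 0.383 to 4.32 ± 0.326 (log2 difference 0.34, limma adjusted p = 0.00222). These 7 calls passed the threshold with each mouse left out in turn, with the mouse number as a block and after median-ratio scaling.

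By group, and beside the 32.1% of all genes that were called lower, 21 of 31 core spliceosome factors and 12 of 16 factors of nonsense-mediated decay fell, with medians of -0.41 and -0.46 on the log2 scale. Of the SR proteins, which mark exons for inclusion, 7 of 15 fell, and of the hnRNP proteins 12 of 26. Of 19 factors of 3′ end formation 10 fell, and of 27 other splicing regulators 9. Of the 6 kinases of SR proteins 1 fell and 1 rose. The share of the other splicing regulators that fell was thus near that of all genes. By group, no comparison was made with the genes of a mean FPKM of at least 1 alone. After median-ratio scaling, with 19.7% of all genes called lower, the calls were 13 lower for the core factors, 10 lower for decay, 4 lower for SR proteins, 7 lower and 2 higher for hnRNP proteins, 5 lower for 3′ ends, 5 lower and 1 higher for the other regulators, and 1 in each direction for the kinases. The counts for SR proteins, hnRNP proteins, 3′ ends and the other regulators were then close to the share of all genes.

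Markers of the liver's cell types were looked up in the same fit. Over all genes 44.8% were called, 12.7% higher and 32.1% lower, so nothing is read from the number of markers called. Hepatocyte markers, which check the tissue label, summed to 41061 to 57231 FPKM in PZH mice and 23274 to 36679.5 in control mice, without overlap. Alb made up most of these sums, with a mean FPKM of 38437 in PZH mice and 24059 in control mice. Of the 7 markers 3 were higher (Alb, Ttr and Cps1) and Hnf4a was lower at the adjusted threshold. Of 9 markers of stellate cells and myofibroblasts, Col3a1 and Reln were higher and Acta2, Tagln and Des lower, with sums of 128 to 218 and 109 to 176. Of 7 markers of macrophages and Kupffer cells Clec4f, Csf1r and Vsig4 were higher and Cd68 was lower, with sums of 354 to 552 and 324 to 433. Of 6 endothelial markers Lyve1 and Pecam1 were lower (sums of 71.5 to 87.9 and 77.8 to 87.6), and of 5 cholangiocyte markers Sox9 was lower (66.9 to 133 and 96.9 to 161). Of 6 lymphocyte markers 0 passed by limma, and 0 had an unadjusted p under 0.05, with sums of 2.34 to 4.22 and 2.49 to 4.52. The same counts were found for 4 neutrophil markers, which summed to 5.67 to 119 in PZH mice and 9.40 to 46.8 in control mice. After median-ratio scaling 39.0% of all genes were called. Of the markers, 5 of hepatocytes were then higher and 0 lower, 3 stellate markers were higher and 3 lower, and 4 macrophage markers were higher and 0 lower. With the same scaling 1 endothelial and 1 cholangiocyte marker were called in each direction and 1 lymphocyte marker was higher. Epcam, a cholangiocyte marker, was listed at 0 in a control mouse, and Ly6g, a neutrophil marker, in a PZH mouse. The part of these markers in the shares of the 6 genes was not tested.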

How the data were processed

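Liver RNA of 12 mice, 6 per group, was sequenced as paired reads in strand-specific libraries. Trimming by the authors used Trimmomatic, and their mapping to GRCm38 used HISAT2 (version 2.1.0), after which they quantified transcripts with StringTie version 1.3.5 and Ensembl annotation release 95. The deposited values are FPKM per transcript and mouse, on the linear scale, for 29883 protein-coding and 1432 lncRNA transcripts. The lowest FPKM sum of a listed protein-coding transcript was 1. Columns were assigned to groups by the group and number in their names.

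Of the protein-coding transcripts 29876 were found in GENCODE M21, which gave gene, exon and coding coordinates, and the other 7 were left out. The lncRNA table held 0 transcripts of the 6 genes and was not used further. Shares were taken per mouse, and 2 genes with a sum of 0 in a mouse were not tested. Fragments per M mapped are FPKM multiplied by the annotated length in kb, and depend on how StringTie assigned the reads. Sequences were read from the GENCODE transcripts.

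No test was made of shares or gene sums of the 6 genes. Gene sums of RNA processing factors and cell type markers were compared with limma 3.58.1 in R 4.3.3, with default variance moderation, a pseudocount of 1 and no filter on low values, which understates the change of low genes. The procedure and the selection were tested on simulated data. The other steps used Python 3.11.15 with numpy 2.4.6, pandas 2.3.3 and matplotlib 3.10.9. P-values measure the spread between mice. All 6 genes are named, with up to 6 called factors of the largest change in each direction and the genes nearest to each limit. The genes, lists and limits were chosen with earlier results of these data known.

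Between 12.5% and 16.0% of low values per mouse were whole multiples of 1 fragment (tolerance 0.05), against 10% from spacing, so reads were not recovered, the depth is unknown and no counting interval is given. The alternatives were other limits of FPKM, share and gene difference, overlap allowed, a pseudocount of 0.1, median-ratio scaling, low transcripts left out, transcripts added by coding sequence or start site, a mean-variance trend, the study's fold criterion, a block for the mouse number, and the omission of each mouse in turn. Fragments in place of FPKM, and pairs of mice left out, were added after seeing the data.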

Additional observations from a re-analysis of the deposited data

Results flagged for a closer look

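In each group of 6 mice the share of the lead transcript, that of its counterpart and the gene FPKM were checked for a mouse far from the others, and 4 of 36 values stood out. Chance alone marks about 1 in 20 groups. Control 6 had a share of 0.144 for Suclg2-204 and of 0.852 for Suclg2-201, which mirror each other. The same mouse had a share of 0.491 for Odr4-204, below the other control mice, and was the 1 mouse in which Odr4-203 was listed above 0. Control 5 had a gene FPKM of 7.08 for Odr4, below the other control mice at 13.4 to 16.7. Pairs of mice that stand apart together, such as PZH 1 and 4 for Rbm47, are not marked by this comparison of single mice.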

How the results depend on the processing

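The number of genes that met all criteria was 6, and it followed the limits. It was 11 at a mean gene FPKM of 5 and 1 at 20 (Suclg2), 21 at a share difference of 0.1 and 3 at 0.3 (Akr1c19, Odr4 and Suclg2), and 88 with overlap allowed. With equal coding sequences added together it was 3. Leaving out each mouse in turn gave 6 to 11 genes (10 without PZH 2, PZH 3 or control 5 and 11 without control 6), with fewer mice to separate, and the 6 genes were all kept except Rbm47 without PZH 1 or PZH 4. Without PZH 1 and 4 it was 16 (Rbm47 lost), without PZH 2 and 6 it was 12 (all kept), and without control 2 and 4 it was 8 (Akr1c19 and Slc35c2 lost). In fragments it was 5 (Akr1c19 lost). Each lead transcript's share difference was recomputed with summed FPKM, with low transcripts or mice left out, and on fragments. It kept its direction in all of these and moved by less than 1 SD of the shares within groups. Adding transcripts together was not among these settings. Added by coding sequence, the largest differences were 0.00814 for Akr1c19, 0.0504 for Rbm47 and 0.00495 for Slc35c2. Added by start site, the largest difference of Slc35c2 was 0.0290. The criteria required shares without overlap, so leaving out mice could not reverse a direction. For Rbm47 and Akr1c19, with their wide spread, the limit of 1 SD is also wide. It includes 0.0163 for Rbm47 without PZH 1 and 4 and -0.881 for Akr1c19 without control 2 and 4. Leaving out each mouse gave -0.718 to -0.541 for Akr1c19, 0.391 to 0.486 for Suclg2, 0.367 to 0.477 for Odr4, 0.163 to 0.312 for Rbm47, -0.250 to -0.223 for Aph1a and -0.254 to -0.208 for Slc35c2. Taken on fragments, the differences were -0.441, 0.408, 0.440, 0.325, -0.230 and -0.244 in the same order.

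Of the RNA processing factors 73 were called, and 67 to 84 with each mouse left out. The study set its criteria of a 2-fold change and an unadjusted p under 0.05 on single transcripts. Applied here to log2(gene FPKM + 1) with limma, they called 0 of the factors and 570 of all 14188 genes. At any fold 86 of the factors had such a p. The pseudocount of 1 lowers the fold. Clp1 fell from a mean FPKM of 4.35 to 1.77 and Sf3b4 from 11.2 to 5.43, and neither reached 2-fold on this scale. The mice with the same number did not deviate together (correlations of -0.0732 to 0.0763), so the numbers do not pair them. With the mouse number as a replicate block 72 factors were called, 69 of them among the 73. The unknown depth limits how far low transcripts and values of exactly 0 can be read.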
